A study of Homo sapiens with 5 samples.

Results

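The NRF2 peaks that coincided with peaks of an IgG control were examined in SNU638 cells. A peak was taken as shared when at least 1 bp of it lay in a peak of the control library IgG 2. Of the 9045 NRF2 peaks, 1013 were shared (11.2%, Wilson 95% interval 10.6% to 11.9%), and they held 1013 of the 1746 IgG 2 peaks (58.0%, 55.7% to 60.3%). The other 8032 NRF2 peaks and the 733 IgG 2 peaks with no NRF2 peak served for comparison. These intervals, and those below, cover counting error only and treat peaks as independent, although many lay side by side.

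SNU638 is an established human gastric cancer line, and the labels name no treatment and no change of genotype for any of the 5 libraries. Binding was profiled with CUT&Tag, in which protein A fused to the Tn5 transposase is brought to chromatin by an antibody and cuts the DNA around it. NRF2, BRG1 and ACTL6A had 1 library each. The IgG control had 2, here called IgG 1 and IgG 2. The labels give the same catalogue antibody for both, a normal rabbit IgG by the methods of the study. IgG 1 gave only 11 peaks. The lists hold no read totals, so no fragment count here is scaled to depth, and the control given to the peak caller, if any, is not stated. With 1 library an antibody, no difference could be set against the spread between replicates, so shares and levels are given side by side and no p-value is given.

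NRF2, encoded by NFE2L2, is the transcription factor of the oxidative stress response. It pairs with small MAF proteins on antioxidant response elements (AREs) and drives genes of glutathione synthesis, thioredoxin recycling and NADPH supply. IgG has no chosen target on chromatin, so its peaks mark places where cuts pile up without a specific antibody. Human centromeres are built of alpha satellite, a repeat of about the length of a nucleosome's DNA, part of which carries the CENP-B box, the binding site of the centromere protein CENP-B. Telomeres end in TTAGGG repeats, and blocks of GGAAT satellite, beta satellite and ribosomal RNA genes lie near centromeres and on the short arms of acrocentric chromosomes.

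The sequences under the shared peaks fell into a few repeated families. The following stretches of GRCh38 are shown because each stands for one of them, and all are written 5′ to 3′. The alpha satellite stretch is chr16:36853544-36853714 (plus strand), with the CENP-B box in capitals. The GGAAT stretch is chr4:49149376-49149455 (minus strand), with GGAAT in capitals, from the shared peak of second rank in the NRF2 list.
alpha satellite: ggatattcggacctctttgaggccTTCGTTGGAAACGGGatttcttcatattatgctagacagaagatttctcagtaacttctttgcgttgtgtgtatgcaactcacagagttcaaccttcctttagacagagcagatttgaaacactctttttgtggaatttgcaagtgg
GGAAT satellite: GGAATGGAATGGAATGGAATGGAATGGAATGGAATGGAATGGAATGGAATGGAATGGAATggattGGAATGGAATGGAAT

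Tandem units of other lengths were found as well, and consecutive copies are set under each other, with capitals where a copy differs from the copy in the top line. An AT-rich unit of 42 bp lay under the NRF2 peak with the highest -log10 q of all, at chr3:93470619-93470786 (plus strand). A unit of 68 bp lay at chr18:107237-107440 (plus strand) in the pseudogene ROCK1P1. A unit of 51 bp lay at chr7:100958672-100958824 (plus strand) in an exon of MUC3A, a membrane mucin of the gut, where 51 bp are 17 codons.
42-bp copy A: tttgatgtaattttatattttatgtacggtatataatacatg
42-bp copy B: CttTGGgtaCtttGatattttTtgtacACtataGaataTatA
42-bp copy C: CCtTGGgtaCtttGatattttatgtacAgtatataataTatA
42-bp copy D: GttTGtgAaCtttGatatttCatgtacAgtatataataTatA
68-bp copy A: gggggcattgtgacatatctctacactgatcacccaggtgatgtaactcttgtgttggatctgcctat
68-bp copy B: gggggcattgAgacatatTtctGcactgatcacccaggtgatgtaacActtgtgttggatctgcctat
68-bp copy C: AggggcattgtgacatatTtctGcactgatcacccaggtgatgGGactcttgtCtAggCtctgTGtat
MUC3A copy A: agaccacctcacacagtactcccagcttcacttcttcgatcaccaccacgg
MUC3A copy B: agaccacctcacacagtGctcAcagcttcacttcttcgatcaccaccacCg
MUC3A copy C: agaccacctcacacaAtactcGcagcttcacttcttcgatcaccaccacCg
Against copy A, the copies below it matched at 71.4% to 76.2% of bases for the 42-bp unit, at 94.1% and 85.3% for the 68-bp unit and at 94.1% each in MUC3A.

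Each shared peak was placed in the first class that it met, in a scheme set after values had been seen. In that order, 12 held the telomere repeat (TTAGGG 3 times in a row on either strand) and 546 lay in a CENP-B box block, which is the long run of a chromosome dense in CENP-B boxes (TTCG, 4 of any base, A, 2 of any base and CGGG, on either strand). A further 90 held GGAAT 3 times in a row, and 142 held a short tandem repeat, with at least 60% of bases equal to the base 1 unit of 4 to 200 bp away. Among those left, 169 had most of their 31-mers (stretches of 31 bases) in more than 1 copy on the assembled chromosomes, and 54 were mostly single-copy. The telomere repeat was in 1.18% of the shared peaks and in 0.0498% of the other NRF2 peaks, and no IgG 2 peak outside NRF2 had it (0 of 733, which allows up to 0.409%). A CENP-B box was in 48.2% of shared and 4.48% of other NRF2 peaks. The GGAAT repeat was in 9.77% and 0.249%.

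Most shared sequence was repeated in the genome. In 879 of the shared peaks (86.8%, 84.5% to 88.7%) most 31-mers had more than 1 copy, against 23.1% of all NRF2 peaks, 15.04% (14.3% to 15.8%) of the other NRF2 peaks and 61.5% (57.95% to 64.98%) of the other IgG 2 peaks. The median shared peak was made of 31-mers with 372 copies, while the median was 1 copy for the other NRF2 peaks and 6 for the other IgG 2 peaks. Only 18 shared peaks had no 31-mer in more than 1 copy. The median GC content was 39.9% in shared and 61.7% in other NRF2 peaks, and the widths were alike, with medians of 489 bp and 473 bp. No 31-mer of a shared peak was found in the mitochondrial genome (0 of 1013 peaks, which allows up to 0.296%).

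The 2 libraries gave nearly the same pileup at the shared peaks. The rule used both lists, so these values are a description. A number of fragments at each summit was recovered from the deposited fold enrichment and p-value. It ran from 8 to 2326 for NRF2 at shared peaks, with a median of 29, against 16 at the other NRF2 peaks. The 27 NRF2 peaks with the highest -log10 q were all shared, and the highest peak that was not had rank 28. NRF2 had more fragments than IgG 2 in 577 of 1013 pairs (57.0%), and the median ratio of NRF2 to IgG 2 was 1.06, with quartiles of 0.912 and 1.26. Across the peaks the 2 numbers rose together (Spearman rho 0.929, n = 1013 peaks, which share cells, genome copies and the choice of peaks present in both).

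Summits also coincided. The median distance between the NRF2 and the IgG 2 summit was 35 bp, and in 594 pairs (58.6%) it was at most 50 bp. The median shared peak had 94.0% of its bases in the IgG 2 peak. By class, median fragments were 23 in NRF2 and 23 in IgG 2 in the CENP-B box blocks, 134.5 and 108.5 at GGAAT satellite, 137 and 99.5 at telomere repeats, 27 and 26 at short tandem repeats, 63 and 57 at other multi-copy sequence, and 18.5 and 16.5 at mostly single-copy sequence. At the edge of the rule, a peak 21759 bp from PBX3, its nearest gene (chr9:125989136-125989656), shared 4 bp with an IgG 2 peak. In contrast, a peak at chr9:60624781-60625455 missed one by 4 bp. In all, 46 peaks that were not shared lay within 1 kb of an IgG 2 peak.

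The 10 members with the highest -log10 q were of several kinds. The peak of rank 1 (chr3:93470358-93470800, within a CENP-B box block but with no box of its own, and touching an assembly gap) had 2121 fragments in NRF2, 2240 in IgG 2, 70 in BRG1 and 145 in ACTL6A. Its GC content was 22.1%, and it carried the 42-bp unit. The peak of rank 2 (chr4:49149161-49149850, GGAAT) had 2190 in NRF2, 2116 in IgG 2, 43 in BRG1 and 167 in ACTL6A. The peak of rank 3 (chr18:107161-109442, over ROCK1P1) had 2326, 1802, 136 and 212. In each of them the counts of NRF2 and IgG 2, not scaled for depth, were close together and above those of BRG1 and ACTL6A. The deposited fold enrichment did not follow this order. At rank 1 it was 20.9 in NRF2, 20.3 in IgG 2, 23.5 in BRG1 and 24.9 in ACTL6A. At rank 2 these were 13.5, 13.4, 10.5 and 21.2, and at rank 3 they were 8.54, 8.44, 6.55 and 8.53.

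The remaining members of the top 10 were of the same kinds. A second peak with the 42-bp unit (chr4:49709298-49711938, nearest to the pseudogene SNX18P25) had 1800 fragments in NRF2 and 2038 in IgG 2. A peak over DUX4, the double homeobox gene at the end of chromosome 4 (chr4:190177619-190179998), had 1619 and 1230. GGAAT peaks on chromosome 21 (chr21:7925903-7926751 and chr21:10692373-10693071, the latter nearest to IGHV1OR21-1) had 1145 and 738 in NRF2 and 905 and 699 in IgG 2, and one on chromosome 10 (chr10:41859278-41860321, nearest to KSR1P1) had 988 and 953. In the CENP-B box block of chromosome 5, where EMB was the nearest gene, peaks at chr5:49601485-49602932 and chr5:49658329-49660277 had 1130 and 1418 in NRF2 and 1075 and 1348 in IgG 2. Both held the GGAAT repeat and no CENP-B box, and were in the block class by its place in the order. NRF2 exceeded IgG 2 in 8 of these 10, and the 2 exceptions were the peaks with the 42-bp unit.

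The AT-rich 42-bp unit was searched in all members, as peaks with a GC content under 30% and at least 50% of bases equal to the base 42 bp away or at the double or triple of it. It was in 10 shared peaks, on chromosomes 3, 4, 8, 14 and 22, in 1 other NRF2 peak and in 1 other IgG 2 peak. Their NRF2 fragments ran from 46 to 2121, with a median of 150, and their GC content from 19.7% to 24.3%. Of the 10, 3 overlapped a BRG1 peak and 3 an ACTL6A peak.

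By chromosome, the shared peaks were most numerous on chromosome 10 (111 of its 479 NRF2 peaks, 23.2%) and chromosome 1 (109 of 864, 12.6%) and least on chromosomes 14 (4 of 250) and 15 (6 of 233). On chromosome Y, 22 of 39 NRF2 peaks were shared. The CENP-B box blocks, 1 on each chromosome but Y, covered 2.06% of sequenced bases and held 98.8% of all boxes. They held 53.9% of the shared peaks (50.8% to 56.9%), 10.5% of all NRF2 peaks, 5.04% of the other NRF2 peaks (4.58% to 5.54%) and 38.5% of the other IgG 2 peaks (35.02% to 42.05%).

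Within the blocks the peaks were uneven. The block of chromosome 10 held 74 shared peaks, or 31.9 per Mb, that of chromosome 19 held 58 (20.3 per Mb), that of chromosome 5 held 63 (18.7 per Mb) and that of chromosome 1 held 63 (18.3 per Mb). In contrast, the block of chromosome X held 4 (0.976 per Mb), that of chromosome 18 held 8 (1.46 per Mb) and that of chromosome 14 held none. In alpha satellite, arrays repeat as single monomers or as longer units of several monomers, and the best match then falls at the length of the unit. In the 40000 bp around the peak, the best self-match of the block members was at exactly 340 bp for 328 of 546 (60.1%) and at 171 bp for 88 (16.1%). A CENP-B box was in 485 of them (88.8%).

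The blocks were then divided by their own sequence. In 6 of the 23 blocks (chromosomes 1, 5, 10, 12, 16 and 19) the match within 3 bp of 340 was over 5 percentage points above that within 3 bp of 171. These blocks held 335 shared peaks in 17.2 Mb (19.5 per Mb), and the other 17 blocks held 211 in 46.0 Mb (4.59 per Mb). The groups overlapped, since the blocks of chromosomes 20 (38 peaks, 17.1 per Mb) and 8 (33 peaks, 16.0 per Mb), which matched best at 171 bp, were denser than that of chromosome 16 (27 peaks, 12.1 per Mb). The blocks of chromosomes 2 and 9 matched best at 680 bp and that of chromosome 11 at 850 bp. This division was made after the counts had been seen, and blocks that may repeat each other were counted separately. A cluster in the block of chromosome 1 and one in that of chromosome 19 each held 7 shared peaks over 179.82 kb. Both lay 288 bp from a gap. Clusters in the blocks of chromosomes 5 and 19 both lay 546054 bp from a gap. How much sequence these blocks share was not tested, so the 6 blocks may not be separate cases. The chromosome 16 member with the alpha satellite stretch shown above (chr16:36853223-36853986) had 149 fragments in NRF2 and 150 in IgG 2, with a self-match of 69.1% at 340 bp and 3 CENP-B boxes.

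The shared peaks lay close to assembly gaps, runs of at least 100 unknown bases, of which GRCh38 has 650 inside its chromosomes. Within 1 Mb of a gap were 835 shared peaks (82.4%, 79.96% to 84.65%), against 22.8% of all NRF2 peaks, 15.3% (14.5% to 16.1%) of the other NRF2 peaks, 51.02% (47.4% to 54.6%) of the other IgG 2 peaks and 8.84% of sequenced bases. The median distance to a gap was 141494 bp for the shared peaks. Within 10 kb of a gap were 128 shared peaks (12.6%) and 1.07% of the other NRF2 peaks. Outside the CENP-B box blocks the share within 1 Mb was 66.2%.

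Within 1 Mb of the last sequenced base of a chromosome arm were 77 shared peaks (7.60%, 6.12% to 9.40%), against 4.79% of all NRF2 peaks, 4.43% (4.00% to 4.90%) of the other NRF2 peaks and 1.57% of bases. Within 100 kb were 30 (2.96%), against 0.436% of the other NRF2 peaks and 0.156% of bases.

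**Figure D1:**
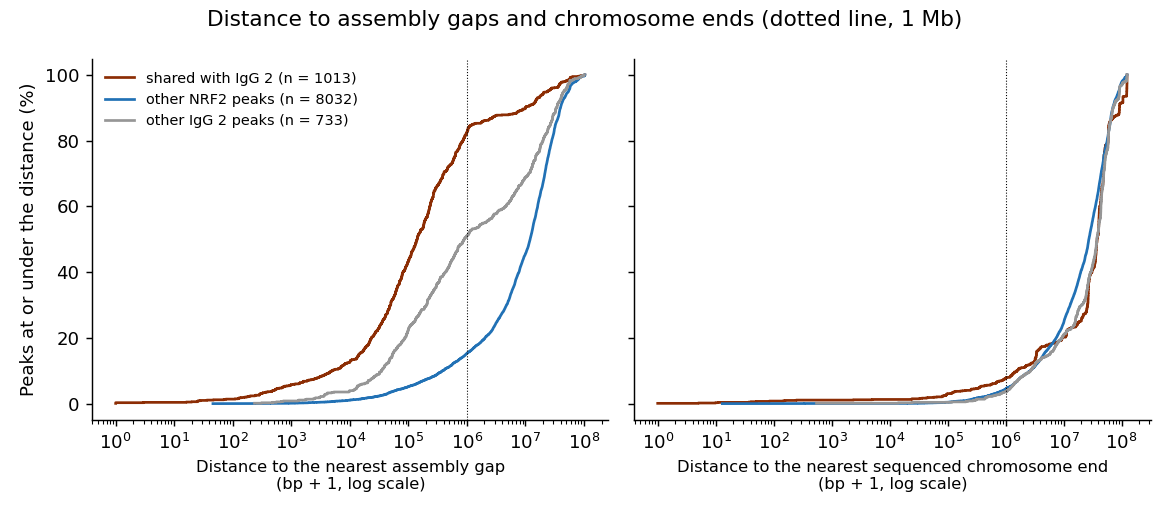
Cumulative share of peaks (y axis, %) by distance to the nearest assembly gap (left) and to the nearest sequenced chromosome end (right), in bp plus 1 on log scales, with a dotted line at 1 Mb. On the left, 82.4% of shared and 15.3% of other NRF2 peaks lie within 1 Mb. On the right these shares are 7.60% and 4.43%, but the median distance is longer for shared peaks (3.80e+07 bp against 2.73e+07 bp).

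At the ends themselves, 12 shared peaks carried the telomere repeat, 11 of them within 1 kb of the end and 1 (chr4:190122456-190123076) inside the subtelomere of chromosome 4. NRF2 had 44 to 455 fragments there, with a median of 137. The highest was the end of the long arm of chromosome X (chrX:156030170-156030739, nearest to DDX11L16), with 455 fragments in NRF2, 313 in IgG 2, 346 in BRG1, 373 in ACTL6A and 63 in IgG 1. It was the peak of rank 1 in the ACTL6A list and of rank 3 in the BRG1 list. All 12 overlapped a BRG1 and an ACTL6A peak.

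IgG 1, the control that the rule did not use, overlapped 6 of the 12 telomere members and no other member. These were 6 shared peaks (0.592%, against 0.0663% of all NRF2 peaks) and there was no overlap with the other NRF2 peaks (0 of 8032, which allows up to 0.0374%), and 7 of its 11 peaks lay over them. Besides chromosome X they were both ends of chromosome 12 (nearest to DDX11L8 and to a Y RNA gene), with 5 and 19 fragments in IgG 1, and the long arm ends of chromosomes 18 (PARD6G) and 22 (RPL23AP7), with 13 and 24. The last was the short arm end of chromosome 5 (chr5:10148-11777), with 20. In each of the 6, IgG 2 had more fragments than IgG 1, with no scaling for depth. The lowest number of fragments expected at a peak, by its fold enrichment, was 0.0734 for IgG 1 and 1.23 for IgG 2. The raw numbers therefore do not rank the 2 controls.

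The best in-peak match was at the length of the ROCK1P1 unit (67 to 69 bp, or the double of 68 bp within 1 bp) in 26 shared peaks outside the blocks. They share this length and not one sequence, as they include repeats in ACTN2, OR2T6, SWAP70 and EXD3 and peaks of GGAAT satellite. The 13 within 5 kb of a DUX4 gene or pseudogene had 254 to 1619 fragments in NRF2, with a median of 335, and the other 13 had 11 to 2326, with a median of 92. Of the other NRF2 peaks 10 had a unit of such length (0.125%, against 2.57% of shared peaks). The 68 bases of copy A above were found with 10 edits in a window of the subtelomeric member of chromosome 10 (chr10:133687126-133690340, near DUX4L20), and the same window recurred on chromosome 4 in the member over DUX4. Both are shown because they are identical over all 120 bases.
chr10:133688298-133688417: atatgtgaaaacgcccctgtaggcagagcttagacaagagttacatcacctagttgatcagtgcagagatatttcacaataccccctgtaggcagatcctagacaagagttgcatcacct
chr4:190178410-190178529: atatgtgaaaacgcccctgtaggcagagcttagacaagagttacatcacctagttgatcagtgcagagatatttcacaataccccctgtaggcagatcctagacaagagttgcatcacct
The chromosome 10 member had 1148 fragments in NRF2, 942 in IgG 2, 88 in BRG1 and 115 in ACTL6A, and the chromosome 4 member 1619, 1230, 113 and 198. Peaks were called on uniquely mapped reads, and how well read pairs could be placed between these copies was not tested.

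Multicopy gene arrays formed clusters of their own. Within 5 kb of a DUX4 gene or pseudogene lay 28 shared peaks and 9 other NRF2 peaks, on chromosomes 3, 4, 9, 10, 20 and Y. The shared ones had 18 to 1619 fragments, with a median of 236, and 20 overlapped BRG1 and 20 ACTL6A. Of the 9 others, 0 overlapped BRG1 and 2 ACTL6A. At the 5S ribosomal RNA array of chromosome 1 (chr1:228556520-228646640) all 8 shared peaks overlapped a BRG1 peak and 6 an ACTL6A peak. The highest, near RNA5S6 (chr1:228621932-228622711), had 186 fragments in NRF2, 131 in IgG 2, 128 in BRG1 and 16 in ACTL6A. Within 5 kb of 5S genes, on chromosomes 1 and 20, lay 7 other NRF2 peaks, 5 with BRG1 and 0 with ACTL6A.

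A cluster of 17 on the short arm of chromosome 21 (chr21:8387819-8471667), which holds 5.8S ribosomal RNA genes, had 13 with BRG1 and 15 with ACTL6A and 104 to 315 fragments. Another 7 NRF2 peaks in this stretch were not shared. At the REXO1L array of chromosome 8, a run of genes and pseudogenes similar to an RNA exonuclease, 18 shared peaks lay within 5 kb of a member, 11 with BRG1 and 12 with ACTL6A, and only 1 other NRF2 peak did. How reads were divided between the near-identical copies of these arrays was not tested, so the level at a single copy is uncertain.

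When shared peaks at most 100 kb apart were joined, they formed 365 loci, of which 235 held 1 peak and 46 held at least 5. These 46 clusters held 554 shared peaks (54.7%), against 25.5% of the other NRF2 peaks in clusters built the same way. Of them, 29 lay wholly in a CENP-B box block and 15 had no peak in one, and 28 had no peak with BRG1. The largest (chr10:39936556-41565067) held 74 shared peaks with 10 to 194 fragments each. Only 1 of them overlapped BRG1 and 12 ACTL6A, and the nearest protein-coding gene, ZNF33B, was 1009118 bp away.

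The next clusters lay in the blocks of chromosome 5 (39 peaks, nearest to EMB), chromosome 1 (30, SRGAP2C) and chromosome 19 (24, UQCRFS1), at 728864 bp to 2803123 bp from a protein-coding gene. A cluster of 24 at chr4:49091967-49327320 lay outside the block, 29886 bp from CWH43, and 9 of its peaks overlapped BRG1 and 10 ACTL6A. Over the 29 clusters wholly in a block, 6 of 376 peaks overlapped BRG1 (1.60%) and 46 ACTL6A (12.2%), and over the 15 with no peak in a block these were 72 (44.2%) and 83 (50.9%) of 163. Single clusters varied, with 12 of 39 peaks over ACTL6A in the block of chromosome 5 and none over either in 2 of the 15.

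Few shared peaks were at genes. Within 1 kb of a protein-coding transcriptional start site (TSS) were 13 (1.28%, 0.751% to 2.18%), against 52.4% of all NRF2 peaks, 58.9% (57.8% to 59.9%) of the other NRF2 peaks, 2.18% of the other IgG 2 peaks and 2.45% of bases. Inside a gene of any kind were 18.9% of shared and 79.7% of other NRF2 peaks. The nearest gene was a pseudogene for 46.4% of shared and 7.51% of other NRF2 peaks, a lncRNA for 29.1% and 21.3%, and a protein-coding gene for 17.6% and 68.1%. Zinc finger genes of the ZNF series were nearest to 31 shared peaks (3.06%, against 2.83%), and olfactory receptor genes to 9 (0.888%, against 0.299%).

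Of the 13 genes with a start by a shared peak, 8 belonged to arrays. They were USP17L11, USP17L15, USP17L23 and USP17L24, deubiquitinase genes of a megasatellite on chromosome 4, and TAF11L3, TAF11L5, TAF11L7 and TAF11L10, copies related to a TFIID subunit on chromosome 5. NRF2 had 22 to 57 fragments at these 8 and IgG 2 had 22 to 51. The TAF11L members all overlapped BRG1 and ACTL6A, with 7 to 16 fragments in either, and of the USP17L members USP17L11 overlapped BRG1, with 5.

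The other 5 were HSPA5, CARS2, ZMYND11, GPR35 and MUC6. The start of any protein-coding transcript counted, and the MUC6 peak lay 587 bp from one, which need not be the main promoter. At HSPA5, which encodes the endoplasmic reticulum chaperone BiP (chr9:125241329-125242092), NRF2 had 32 fragments, IgG 2 had 11, BRG1 36 and ACTL6A 20. At CARS2, the mitochondrial cysteinyl-tRNA synthetase (chr13:110705966-110707231), the values were 41, 14, 107 and 32, and the NRF2 and IgG 2 summits lay 613 bp apart. At ZMYND11, a reader of methylated histone H3 (chr10:136241-137360), they were 22, 17, 23 and 10, with summits 238 bp apart. At GPR35, an orphan G protein-coupled receptor of the gut (chr2:240625693-240626299), NRF2 had 20, IgG 2 had 14 and ACTL6A 18, with no BRG1 peak. HSPA5 and CARS2 were the pair with NRF2 over 2 times IgG 2.

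MUC6, the mucin of gastric glands, had a shared peak over an exon (chr11:1016740-1017110) with 33 fragments in NRF2, 28 in IgG 2, 23 in BRG1 and 19 in ACTL6A. It was 1 of 3 mucin genes with a shared peak in an exon. The others were MUC2, the secreted mucin of the intestine (chr11:1097373-1098003), with 23, 26, no BRG1 peak and 22, and MUC3A (chr7:100957722-100958914), with 135, 107, 20 and 34. Mucin domains are encoded by tandem repeats. With 3 kb to each side, the sequence matched itself best at 507 bp (169 codons) at MUC6, 69 bp (23 codons) at MUC2 and 51 bp (17 codons) at MUC3A.

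Tandem repeats were found in other genes too. The 142 short tandem repeat members had a median unit of 50.5 bp. Of them 58 lay inside a protein-coding gene, in 53 genes, and 85 (59.9%) within 5 Mb of a chromosome end. The highest of those in genes was in TMEM242 (chr6:157310421-157311261, 34-bp unit), with 231 fragments in NRF2, 151 in IgG 2, 188 in BRG1 and 152 in ACTL6A. SERINC2 (chr1:31431756-31432071) had 119, 65, 12 and 31 over a 9-bp unit.

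Of 24 known NRF2 target genes, 1 had a shared peak within 10 kb, where 127 of all 20033 protein-coding genes (0.634%) had one, and a single gene is too few to compare. It was OSGIN1, an oxidative stress-induced growth regulator (chr16:83950416-83950852, 23 fragments in NRF2, 13 in IgG 2 and 9 in ACTL6A, no BRG1 peak). It lay over a repeat with a 152-bp unit. An NRF2 peak that was not shared was near 14 of the 24, against 41% of all protein-coding genes, among them NQO1, HMOX1, GCLC, GCLM, TXNRD1 and SRXN1, and OSGIN1 itself. A BRG1 peak was near 20 of the 24 and an ACTL6A peak near 18, where the shares of all protein-coding genes were 82.7% and 67%.

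The ARE core (TGACNNNGC, both strands) was in the 200 bp around the summit of 52 shared peaks (5.13%, 3.94% to 6.67%), against 9.66% of all NRF2 peaks and 10.2% (9.59% to 10.9%) of the other NRF2 peaks. In windows to each side it was in 6.17% for shared and 6.73% for other NRF2 peaks. Thus the share at the summits was above that of the flanks for the other NRF2 peaks, and not for the shared ones. Of the 52, 33 lay in a CENP-B box block, 14 in other multi-copy sequence, 3 in short tandem repeats and 2 in mostly single-copy sequence.

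The cores at shared summits were often the same letters. TGACAGAGC was found at 13 shared summits, TGACATTGC at 9 and TGACAAAGC at 8, and all of these lay in blocks. As examples, the core of a high peak with one, in the block of chromosome 10 (chr10:40556758-40556788, minus strand), and that of another on chromosome Y (chrY:11324592-11324622, minus strand, near DUX4L18) are shown with the core in capitals.
chromosome 10 core: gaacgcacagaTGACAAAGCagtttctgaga
chromosome Y core: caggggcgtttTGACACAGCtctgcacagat
The 31 bases of the chromosome 10 stretch occurred, without a change, in 21 shared peaks. A match to the core is a description of letters and does not show binding.

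Fewer shared peaks overlapped BRG1, the ATPase of the BAF chromatin remodeling complex, and ACTL6A, its actin-like subunit, than other NRF2 peaks did. For BRG1 the count was 234 (23.1%, 20.6% to 25.8%), against 66.2% of all NRF2 peaks, 71.6% (70.6% to 72.6%) of the other NRF2 peaks and 9.41% (7.51% to 11.7%) of the other IgG 2 peaks. For ACTL6A it was 295 (29.1%, 26.4% to 32.0%), against 49.8%, 52.4% (51.3% to 53.5%) and 10.4% (8.36% to 12.8%). Both lists were overlapped by 185 (18.3%, against 46.4% of all NRF2 peaks) and neither by 669 (66.0%, against 25.9% of the other NRF2 peaks).

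The shared peaks leaned to ACTL6A. ACTL6A alone was overlapped by 110 (10.9%, 9.09% to 12.9%) and BRG1 alone by 49 (4.84%), whereas for the other NRF2 peaks these were 2.51% and 21.7%. Away from a TSS the ACTL6A share was 28.6% (25.9% to 31.5%) for shared and 27.3% (25.8% to 28.8%) for other NRF2 peaks, and the BRG1 share was 22.5% (20.0% to 25.2%) and 38.3% (36.6% to 39.9%). Among peaks of at least 30 fragments, 35.1% of shared and 89.2% of other NRF2 peaks overlapped BRG1, and 46.8% and 74.7% overlapped ACTL6A. Of the 100 ACTL6A peaks with the highest -log10 q, 34 lay over a shared peak and 47 over another NRF2 peak. Of the 100 highest BRG1 peaks these were 7 and 76. In the full lists, 1.46% of ACTL6A and 0.578% of BRG1 peaks lay over a shared peak. Over any NRF2 peak lay 20.0% of ACTL6A and 13.3% of BRG1 peaks.

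The overlap followed the sequence class. In the CENP-B box blocks 16 of 546 overlapped BRG1 (2.93%, 1.81% to 4.71%) and 65 ACTL6A (11.9%, 9.45% to 14.9%). For the 405 other NRF2 peaks in the blocks these were 0 (which allows up to 0.741%) and 20 (4.94%). At GGAAT satellite 14 of 90 (15.6%) overlapped BRG1 and 27 (30.0%) ACTL6A. At short tandem repeats these were 72 (50.7%) and 69 (48.6%) of 142, at other multi-copy sequence 93 (55.0%) and 96 (56.8%) of 169, and at mostly single-copy sequence 27 (50.0%) and 26 (48.1%) of 54. For each of the 365 loci, the peak with the highest NRF2 -log10 q was then kept. The shares were 38.9% for BRG1 and 42.5% for ACTL6A, against 74.3% and 57.9% for the 4292 loci of the other NRF2 peaks. The effect of choosing the highest peak was not separated from that of joining neighbours.

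**Figure D2:**
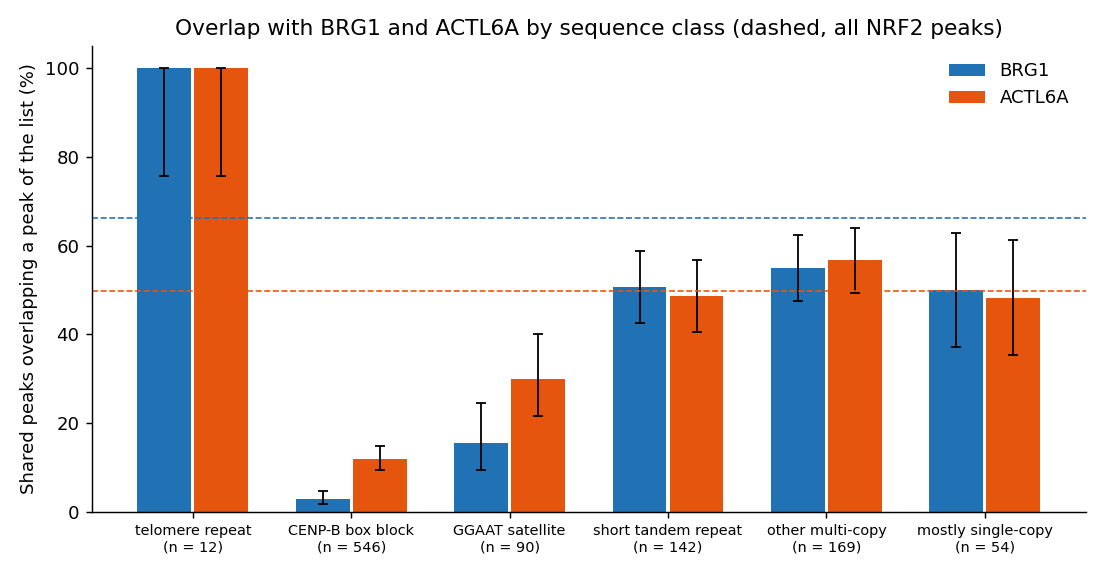
Share of shared peaks that overlap a BRG1 (blue) or ACTL6A (orange) peak (y axis, %) in each sequence class, with Wilson 95% intervals as error bars and the share of all NRF2 peaks as dashed lines. The share was 2.93% and 11.9% in the CENP-B box blocks, near 50% in tandem repeats and single-copy sequence, and 100% for the 12 telomere members.

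Members that overlapped both BRG1 and ACTL6A were ranked by BRG1 -log10 q, so high values in BRG1 follow from this choice. The highest BRG1 peak of the genome (rank 1) lay over a shared peak at chr16:1025245-1025699, a 48-bp tandem repeat with a GC content of 69.01%. It had 370 fragments in BRG1, 142 in ACTL6A, 137 in NRF2 and 64 in IgG 2. After it came telomere members and the repeat in TMEM242. Next were peaks by FAM230E (chr22:18730392-18730710), with 90 in BRG1, 135 in ACTL6A, 70 in NRF2 and 75 in IgG 2, and FAM230C (chr13:18211753-18212504), with 94, 132, 103 and 108, lncRNA genes of segmental duplications. LINC00685 (chrX:323512-323942, in the pseudoautosomal region) had 119 in BRG1, 119 in ACTL6A, 161 in NRF2 and 133 in IgG 2. At the FAM230 members IgG 2 was at least as high as NRF2.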

How the data were processed

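CUT&Tag peak lists of SNU638 cells were analysed, 1 library each for NRF2, BRG1 and ACTL6A and 2 for IgG. The authors used BWA for mapping and MACS2 for peak calling, on uniquely mapped reads of each library. Which control the caller was given, if any, is not stated, and the fold, p and q depend on it. The submitters' processing notes also name fastp 0.23.0 and HOMER 4.11. The deposited values are a score (10 times the -log10 q), a fold enrichment (a ratio), and the -log10 p and -log10 q that the caller assigned. The lists hold no read totals. The members, classes and gene lists were chosen with earlier results of these data known.

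Every peak lay on a main chromosome and was placed on GRCh38 with GENCODE release 44. Overlap was at least 1 bp. The fragments at a summit are the integer for which the deposited fold, with a pseudocount of 1, and the Poisson p are both met (100% of peaks in every list). By the study's account, peaks were called on uniquely mapped reads only. Whether pileup at repeats rests on read pairs placed at 1 site was not tested. Copies of 31-mers were counted on both strands of the assembled chromosomes. CENP-B box blocks were runs of 10000-bp bins with at least 3 boxes, joined over at most 500000 bp, the richest run of each chromosome. The 68-bp unit needed at least 45% matching bases.

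Genes were named by rule: protein-coding genes with a shared peak within 1 kb of a TSS, genes nearest to the 10 highest members, to the 5 largest clusters, to the 10 members with both BRG1 and ACTL6A and the highest BRG1 -log10 q, and to members in IgG 1, and NRF2 targets within 10 kb. Genes of arrays, mucins and tandem repeats were named after their values were seen. Routines were tested on simulated data. No test between lists was made. A sequence and a gene are not reported here. The genome given here is in upper case, so soft-masked repeats were not counted. Sequence was read with samtools 1.23.1 and pysam 0.24.0, repeats were matched with Numba 0.67.0 and edlib 1.3.9.post1, and values were computed and drawn with pandas 2.3.3, SciPy 1.17.1, NumPy 2.4.6 and matplotlib 3.10.9 in Python 3.11.15.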

Additional observations from a re-analysis of the deposited data

How the results depend on the processing

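Of 80 alternative values for 13 results, 46 stayed within the interval of the value given above (for counts, within 1.5 times). The number of shared peaks was 906 when at least 50% of both peaks had to overlap, 964 when the NRF2 summit had to lie in the IgG 2 peak and 760 when both lists were limited to a -log10 q of 5 or more. That last setting moved the share within 1 Mb of a gap to 86.3%, with ACTL6A to 33.03%, in clusters to 51.4%, with most 31-mers repeated to 88.8% and the median of fragments to 39.5. With 50% of both NRF2 and IgG 2 peaks the repeated share was 88.7%. Starts of genes of any kind lay within 1 kb of 6.02%. A gap lay within 100 kb of 43.1% and within 5 Mb of 87.9%, and a gap of at least 50 kb within 1 Mb of 67.9%. A chromosome end lay within 100 kb of 2.96% and within 5 Mb of 17.7%. At 50% of both peaks 8.98% overlapped BRG1 and 13.2% ACTL6A, and with BRG1 or ACTL6A peaks limited to a -log10 q of 5 or more these were 16.0% and 20.1%. With steps of 10 kb, 13 clusters held 9.48% of shared peaks, and with steps of 1 Mb 77.8% were in clusters. With at least 3 peaks 85 clusters held 67.9%, and with at least 10 peaks 16 held 34.7%. With 24-mers 92.3% were repeated, and 72.4% when 90% of 31-mers had to be. The looser motif TGANNNNGC was at 25.9% of summits, and the core was in 11.8% of whole peaks.

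Settings added after seeing the data were 1 peak per locus, that of highest NRF2 -log10 q, and peaks outside the CENP-B box blocks. With 1 peak per locus, 60.0% were near a gap, 74.8% repeated, 38.9% with BRG1 and 42.5% with ACTL6A. Outside the blocks the shares for gap, BRG1 and ACTL6A were 66.2%, 46.7% and 49.3%. The soft-masked share was not run because the genome given has no lower case. No paired analysis was possible because the lists come from single libraries and no result comes from a test. Depth limits what a missing peak shows, since a region with no peak may hold fragments under the caller's threshold.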
